A study of Mus musculus with 8 samples.

Results

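Transcripts of 10 genes that write, copy, erase or accompany DNA methylation were followed in cells of 4T1, a carcinoma line of the mouse mammary gland, after separation by the surface protein SCA1. The genes were Dnmt1, Dnmt3a, Dnmt3b, Uhrf1, Tet1, Tet2, Tet3, Tdg, Ezh1 and Ezh2, taken by symbol and matched to their Ensembl identifiers, and all 10 were found among the 16341 genes counted. RNA was sequenced from 4 libraries of the 4T1-Sca1+ fraction and 4 of the 4T1-Sca1- fraction. The study's text and the sample labels give the parental 4T1 line as the source of both fractions, and the labels add that CD45- cells were taken. The protocol in the labels, however, speaks of 4T1 tumor stained for SCA1 and passed over magnetic columns, while a tag in the labels reads facs sort. No drug, genotype or time point separates the groups, and the labels do not say whether replicates were separate sorts, so each test measures only the spread between these libraries, which may be technical.

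DNA methylation is placed on cytosines of CG pairs. DNMT3A and DNMT3B set new marks, and DNMT1 copies marks to the daughter strand after replication, guided by UHRF1, which binds DNA methylated on only the parent strand. TET1, TET2 and TET3 oxidize methylcytosine, and TDG, a DNA glycosylase, cuts out the most oxidized forms so that repair restores plain cytosine. EZH1 and EZH2 are not DNA methyltransferases. They are the alternative catalytic subunits of Polycomb repressive complex 2 (PRC2), which methylates lysine 27 of histone H3, a mark found mainly at CG-rich promoters that lack DNA methylation.

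Each 4T1-Sca1+ library held 15041995 to 16968215 counts and each 4T1-Sca1- library 13561804 to 16142836. Ly6a, which encodes SCA1, checked the sort, at 167 ± 20.2 against 1.79 ± 1.73 normalized counts (SD, n = 4 each), a log2 fold change of 6.42 ± 0.27 (SE). Normalized counts are counts divided by a size factor for each library. Among pairs of 4T1-Sca1+ libraries, those with replicate 3 differed most, and without it the same numbers of the 10 genes were called, 5 higher and 1 lower. The epithelial keratins Krt18 and Krt8 were high in both fractions, at 16514 ± 797 against 12802 ± 404 and 13673 ± 569 against 11093 ± 392. With GC-corrected offsets the Krt8 difference was no longer called (0.0652). They were the 2 that rose of 6 epithelial markers listed, of which 2 fell (Krt14 and Cdh1) and 1 had at most 3 counts in every library. In bulk RNA, fewer cells of a type and less RNA per cell cannot be told apart.

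Sequences before a RefSeq start site of 3 of the genes higher in 4T1-Sca1+ are shown because they are dense in CG pairs, the substrate of the enzymes themselves. Each line gives 250 bases (build GRCm38.p6), written 5′ to 3′ along the gene, with CG pairs in capitals. All 3 windows lie inside the longer gene spans of the GENCODE annotation given below.
Tet2, chr3:133544391-133544640, minus strand: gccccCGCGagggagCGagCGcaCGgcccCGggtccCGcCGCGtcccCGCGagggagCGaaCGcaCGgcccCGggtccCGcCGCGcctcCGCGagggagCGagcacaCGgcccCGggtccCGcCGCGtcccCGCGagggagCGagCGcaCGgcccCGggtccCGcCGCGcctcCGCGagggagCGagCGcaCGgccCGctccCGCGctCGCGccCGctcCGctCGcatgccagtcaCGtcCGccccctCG
Dnmt3a, chr12:3806730-3806979, plus strand: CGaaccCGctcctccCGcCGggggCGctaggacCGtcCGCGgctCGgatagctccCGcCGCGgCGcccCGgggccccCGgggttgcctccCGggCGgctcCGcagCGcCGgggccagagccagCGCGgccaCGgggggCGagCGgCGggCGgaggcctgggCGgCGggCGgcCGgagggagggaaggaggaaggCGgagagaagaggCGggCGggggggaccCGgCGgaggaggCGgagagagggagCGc
Uhrf1, chr17:56304063-56304312, plus strand: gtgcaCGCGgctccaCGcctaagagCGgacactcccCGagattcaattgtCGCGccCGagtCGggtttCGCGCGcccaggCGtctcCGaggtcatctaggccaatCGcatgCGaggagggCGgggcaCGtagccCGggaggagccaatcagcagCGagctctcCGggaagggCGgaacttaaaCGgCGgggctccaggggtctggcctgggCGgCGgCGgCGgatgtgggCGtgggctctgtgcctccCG
The Tet2 window held 51 CG pairs, the Dnmt3a window 38 and the Uhrf1 window 30, more than in 99.9%, 98.1% and 94.1% of 32851 RefSeq promoter windows of the same length. None of these windows overlapped an annotated exon, whereas those of Tet1, Tet3 and Ezh2 did, with 15, 17 and 23 CG pairs. Other starts of the same genes had other densities, with 40 and 15 CG pairs in further Dnmt3a windows and 10 in a further Uhrf1 window, and Dnmt1, which was not called, had windows with 26, 7 and 2. The median over all windows was 6 CG pairs, with quartiles of 2 and 16, and the median over the 15 windows that belong to the 10 genes was 19. CG density is a property of the genome, and no methylation was measured here.

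Of the 10 genes, 5 were higher in 4T1-Sca1+ (Dnmt3a, Uhrf1, Tet1, Tet2 and Tet3), 1 was lower (Ezh2) and 4 were not called (Dnmt1, Dnmt3b, Tdg and Ezh1), by edgeR's quasi-likelihood test with Benjamini-Hochberg adjustment over all 11717 genes tested and an adjusted p under 0.05. All 10 genes passed the filter on low counts. Differences were common in these fractions. Of all genes tested, 31.3% were called higher, 30.2% lower and 61.5% in either direction, so the 6 genes called of 10 are close to the share over all genes. Under offsets that correct each library for the GC content of genes, the calls over all genes split into 3083 higher and 4708 lower, against 3668 and 3538 without the correction. Normalized counts of the fractions did not overlap for 6 of the 10 genes, against 54.7% of genes tested. The median log2 fold change was 0.33 over the 10 genes and 0.0074 over all genes tested, and the median size regardless of sign was 0.40 against 0.24.

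**Figure D1:**
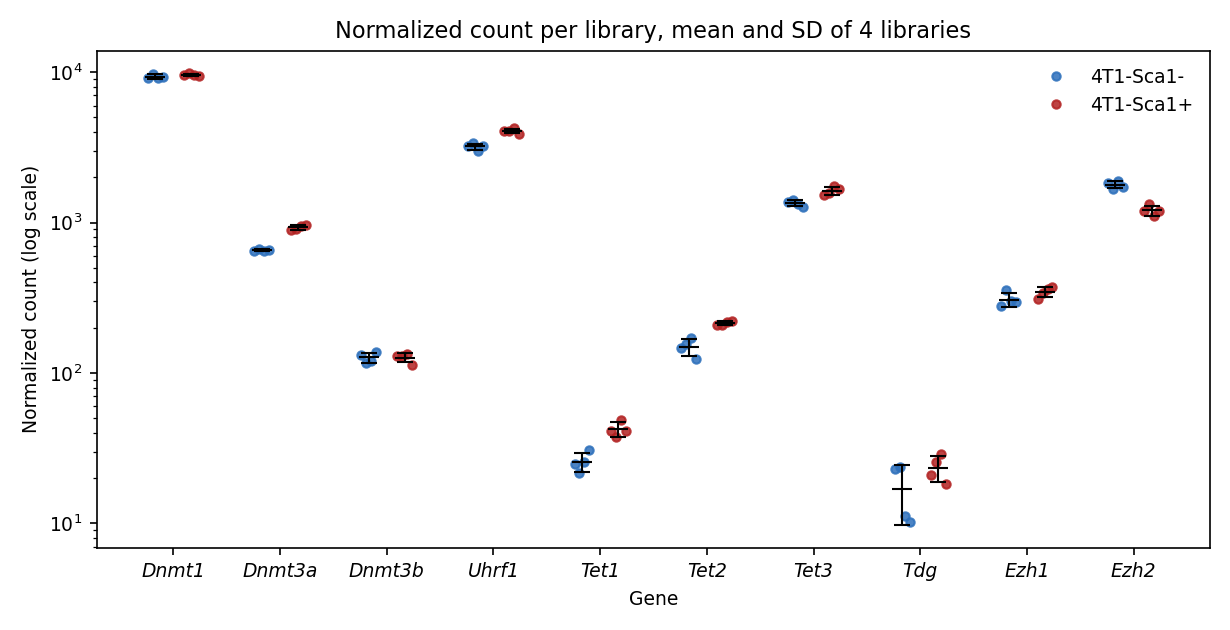
Normalized counts (log axis) of the 10 genes in each library, 4T1-Sca1- in blue and 4T1-Sca1+ in red, with black bars for the mean and SD of 4 libraries. The red and blue points are fully apart for Dnmt3a, Uhrf1, Tet1, Tet2, Tet3 and Ezh2, and only for Ezh2 do the blue points lie above the red.

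Levels per length spanned a far wider range between genes than between fractions. Per kilobase of annotated exon, Dnmt1 stood at 1305 ± 20.2 normalized counts in 4T1-Sca1+ and 1266 ± 42.8 in 4T1-Sca1-, and Uhrf1 at 956 ± 34.3 and 753 ± 35.0. The pair that copies methylation was thus the most abundant in both fractions. Ezh2 followed at 180 ± 13.8 and 267 ± 14.8 per kilobase, then Tet3 at 97.7 ± 5.91 and 80.4 ± 3.70. Dnmt3a came next in 4T1-Sca1+, at 55.9 ± 2.16 above Ezh1 at 46.5 ± 3.79, whereas in 4T1-Sca1- the values of 39.5 ± 0.506 and 41.3 ± 4.53 lay within their SD of each other. Dnmt3b (24.9 in both), Tet2 (12.7 and 8.83), Tdg (4.37 and 3.16) and Tet1 (2.73 and 1.66) were the lowest per kilobase. In 4T1-Sca1- the mean ± SD ranges of Tdg and Tet1 overlapped.

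The methyltransferases that set new marks went separate ways. Dnmt3a (ENSMUSG00000020661, chr12:3806007-3914443, plus strand) measured 890, 909, 954 and 966 normalized counts in 4T1-Sca1+ and 651, 668, 650 and 659 in 4T1-Sca1-. Each 4T1-Sca1+ library was above each 4T1-Sca1- library, and the spread within a fraction was small. The means were 930 ± 36.0 and 657 ± 8.42, a 1.43-fold difference (log2 fold change 0.51 ± 0.05 SE, adjusted p = 1.44e-07, edgeR). Dnmt3b (ENSMUSG00000027478, chr2:153649450-153687730, plus strand) measured 129, 130, 134 and 114 in 4T1-Sca1+ and 132, 117, 120 and 138 in 4T1-Sca1-. The fractions were interleaved at a mean of 127 in both, with a log2 fold change of 0.01 ± 0.10 and a 95% interval from -0.20 to 0.22 (adjusted p = 0.946, edgeR), and its sign changed with the scaling of libraries.

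Within each library the ratio of Dnmt3b to Dnmt3a counts, which does not depend on scaling, was 0.145, 0.144, 0.141 and 0.118 in 4T1-Sca1+ and 0.203, 0.176, 0.186 and 0.210 in 4T1-Sca1-. Every 4T1-Sca1+ ratio lay below every 4T1-Sca1- ratio. The mean log2 ratio differed by -0.50, with p = 0.0286 by a two-sided exact permutation test, the smallest that 4 against 4 libraries allow, and 0.0476 after Benjamini-Hochberg adjustment over the 5 ratios tested.

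The copying machinery also showed one gene that rose and one that was not called. Dnmt1 (ENSMUSG00000004099, chr9:20907209-20959888, minus strand) measured 9567, 9825, 9641 and 9475 normalized counts in 4T1-Sca1+ and 9108, 9793, 9137 and 9328 in 4T1-Sca1-. The fractions overlapped, since 4T1-Sca1- replicate 2 was nearly as high as the highest 4T1-Sca1+ library. The log2 fold change was 0.06 ± 0.04 with a 95% interval from -0.03 to 0.14 (adjusted p = 0.236, edgeR). Its direction was not stable to scaling, at 0.0995 when libraries were scaled by their totals alone (adjusted p = 0.0325, edgeR) and -0.102 with GC-corrected offsets (adjusted p = 0.0107, edgeR).

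Uhrf1 (ENSMUSG00000001228, chr17:56303321-56323486, plus strand), which brings DNMT1 to newly replicated DNA, measured 4077, 4060, 4250 and 3893 normalized counts in 4T1-Sca1+ and 3214, 3366, 3007 and 3237 in 4T1-Sca1-. The fractions did not overlap. Uhrf1 rose 1.28-fold, from 3206 ± 149 to 4070 ± 146 (log2 fold change 0.36 ± 0.05, adjusted p = 3.1e-06, edgeR). With GC-corrected offsets the log2 fold change was 0.205, still called. The ratio of Dnmt1 to Uhrf1 counts was 2.35, 2.42, 2.27 and 2.43 in the 4T1-Sca1+ libraries and 2.83, 2.91, 3.04 and 2.88 in the 4T1-Sca1- libraries. It was lower in every 4T1-Sca1+ library, by -0.30 on the log2 scale (exact permutation p = 0.0286, adjusted 0.0476).

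All 3 TET dioxygenases were higher in 4T1-Sca1+. Tet1 (ENSMUSG00000047146, chr10:62804570-62908996, minus strand) measured 41.1, 37.5, 48.9 and 41.1 normalized counts in 4T1-Sca1+ and 24.8, 21.6, 25.6 and 30.8 in 4T1-Sca1-. It was the lowest of the 3 and the one with the highest fold, 1.66 (42.2 ± 4.80 against 25.7 ± 3.83, log2 fold change 0.73 ± 0.18, 95% interval 0.36 to 1.10, adjusted p = 0.0017, edgeR). Each library held only 38 to 49 or 21 to 27 counts of Tet1, hence the wide interval.

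Tet2 (ENSMUSG00000040943, chr3:133463679-133545139, minus strand), whose CG-dense window before its RefSeq start is printed above, measured 209, 209, 219 and 222 normalized counts in 4T1-Sca1+ and 146, 155, 170 and 123 in 4T1-Sca1-. The 4T1-Sca1+ libraries were tightly grouped and all above the 4T1-Sca1- libraries, which were more spread. The fold was 1.46 (215 ± 6.85 against 149 ± 19.7, log2 fold change 0.54 ± 0.09, adjusted p = 8.01e-05, edgeR). Tet3 (ENSMUSG00000034832, chr6:83362373-83459084, minus strand), the most abundant TET gene here, measured 1533, 1574, 1754 and 1664 in 4T1-Sca1+ and 1372, 1409, 1320 and 1267 in 4T1-Sca1-. These did not overlap either, and the fold was 1.23 (1631 ± 98.7 against 1342 ± 61.8, log2 fold change 0.29 ± 0.05, adjusted p = 0.000107, edgeR). With GC-corrected offsets the Tet3 value was 0.147, still called.

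Whether Tet1 and Tet2 differed from Tet3 was tested within libraries. The ratio of Tet1 to Tet3 counts was 0.0271, 0.0241, 0.0281 and 0.0250 in 4T1-Sca1+ and 0.0184, 0.0157, 0.0198 and 0.0248 in 4T1-Sca1-. The ratio of Tet2 to Tet3 was 0.137, 0.133, 0.125 and 0.134 in 4T1-Sca1+ and 0.107, 0.110, 0.129 and 0.0977 in 4T1-Sca1-. Both ratios overlapped between fractions in 1 or more libraries and missed the threshold, with log2 differences of 0.42 and 0.26 (exact permutation p = 0.0571 for each, adjusted 0.0571), which does not show that the 3 genes moved alike.

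**Figure D2:**
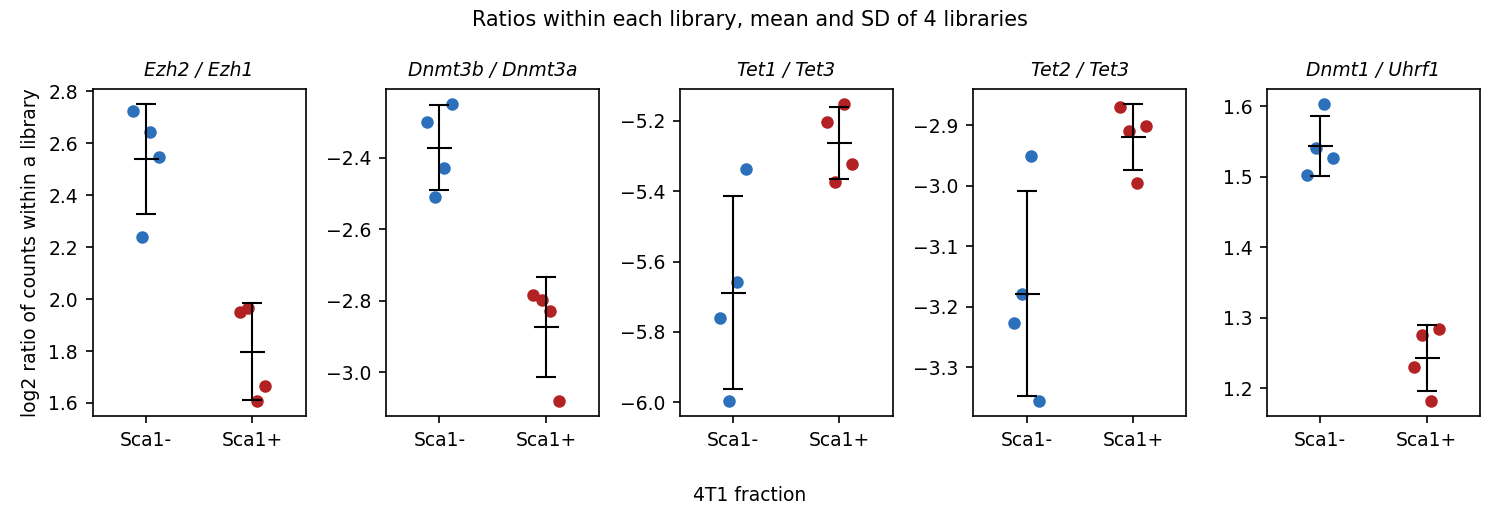
Log2 ratios of the counts of paired genes within each library, by fraction, with black bars for the mean and SD of 4 libraries and a separate vertical scale in each panel. The fractions are apart for Ezh2 to Ezh1, Dnmt3b to Dnmt3a and Dnmt1 to Uhrf1, and overlap for both TET ratios.

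The genes whose levels ran closest to those of Tet1 over the 8 libraries, by Pearson correlation of log2 CPM, were Pias3 (r = 0.9964), Scube3 (0.9892), Ankrd24 (0.9875), Fam120aos (0.9837) and 9330151L19Rik (0.9836). They were the nearest of 11717 genes, and the 8 points share the split between fractions, so the values describe likeness alone.

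Tdg (ENSMUSG00000034674, chr10:82629828-82650799, plus strand), the glycosylase that acts after TET oxidation, was the least counted of the 10 genes before allowing for length. It measured 21, 25.6, 28.9 and 18.4 normalized counts in 4T1-Sca1+ and 22.9, 23.6, 11.1 and 10.3 in 4T1-Sca1-. The 4T1-Sca1- libraries fell into a higher and a lower pair, and the higher pair overlapped the 4T1-Sca1+ range. The log2 fold change was 0.44 ± 0.27 with a 95% interval from -0.14 to 1.01 (adjusted p = 0.176, edgeR), so a difference was not detectable at 9 to 29 counts a library.

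Tdg also shares sequence with other genes. Of the 75-base windows of its longest coding transcript, 55.8% also occur letter for letter in another annotated gene (GENCODE M21), 36.3% in Tdg-ps, 22.3% in Gm9855 and 20.2% in Gm5597. A read from such a window cannot be assigned to 1 gene, and how such reads were counted is not given in the sources used here. The following stretch of the coding sequence, bases 328 to 402 of the transcript, is shown because it is identical in all 3 of these copies.
Tdg: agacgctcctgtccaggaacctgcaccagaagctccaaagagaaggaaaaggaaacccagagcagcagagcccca
Part of Tdg also lies opposite Glt8d2, which received 164 counts over the 8 libraries, and 8.55% of its windows occur there. The part of these shared sequences in the level of Tdg was not tested. Shared windows were fewer for Uhrf1 (11.3%, with Gm5648), Dnmt3b (7.72%, with Dnmt3c) and Ezh2 (0.70%), and at this length none was found for Dnmt1, Dnmt3a, Tet1, Tet2, Tet3 or Ezh1.

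**Figure D3:**
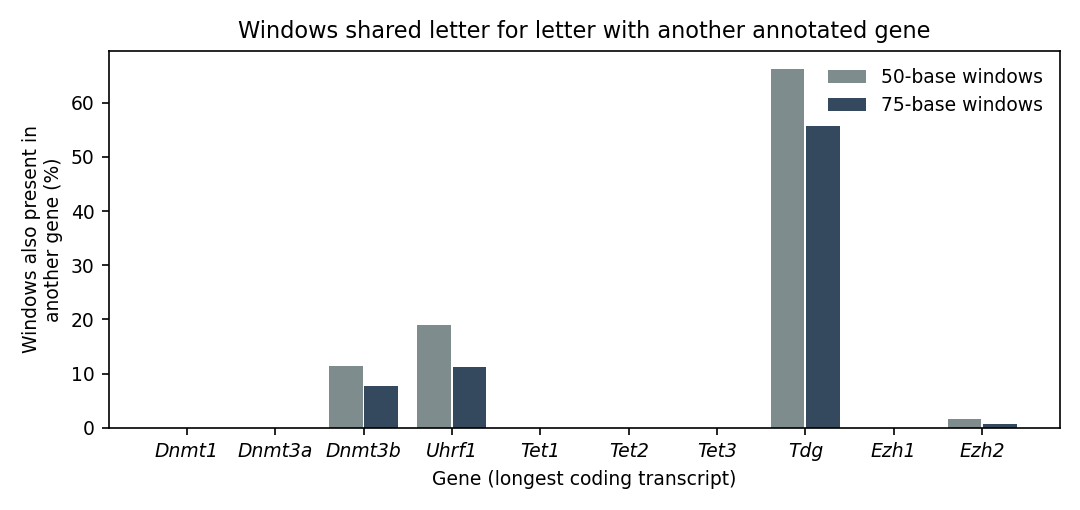
Percentage of 50-base (gray) and 75-base (dark) windows of the longest coding transcript of each gene that also occur letter for letter in another annotated gene. Tdg stands at 66.3% and 55.8%, Uhrf1 at 18.9% and 11.3%, and Dnmt3b at 11.5% and 7.72%, with the other genes at or near 0.

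Ezh2 was the only one of the 10 genes called lower in 4T1-Sca1+. Ezh2 (ENSMUSG00000029687, chr6:47530139-47595341, minus strand) measured 1198, 1327, 1104 and 1188 normalized counts in 4T1-Sca1+ and 1833, 1681, 1897 and 1726 in 4T1-Sca1-. No library of one fraction reached the other. The level was 1.47-fold higher in 4T1-Sca1- (1784 ± 98.6 against 1204 ± 92.2, log2 fold change -0.55 ± 0.06, 95% interval -0.68 to -0.43, adjusted p = 3.01e-07, edgeR), a size that exceeded the change of 82.2% of genes tested.

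Ezh1 (ENSMUSG00000006920, chr11:101191115-101226463, minus strand), the catalytic subunit that prevails in many resting tissues, measured 310, 339, 362 and 374 normalized counts in 4T1-Sca1+ and 277, 355, 303 and 294 in 4T1-Sca1-. Replicate 2 of 4T1-Sca1- was the only library of that fraction inside the 4T1-Sca1+ range. The log2 fold change was 0.19 ± 0.08 with a 95% interval from 0.01 to 0.36 and did not pass the threshold (adjusted p = 0.0638, edgeR). The call turned on single libraries and on scaling. It passed at 0.258 without 4T1-Sca1- replicate 2 (adjusted p = 0.0122, edgeR), at 0.233 without 4T1-Sca1+ replicate 1 (adjusted p = 0.0284, edgeR) and at 0.228 with scaling by library totals (adjusted p = 0.0242, edgeR).

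The ratio of Ezh2 to Ezh1 counts was 3.86, 3.91, 3.05 and 3.18 in the 4T1-Sca1+ libraries and 6.61, 4.73, 6.26 and 5.85 in the 4T1-Sca1- libraries. The balance of the catalytic subunits was lower in every 4T1-Sca1+ library. The log2 ratio differed by -0.74 (exact permutation p = 0.0286, adjusted 0.0476), the greatest difference among the 5 ratios.

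**Figure D4:**
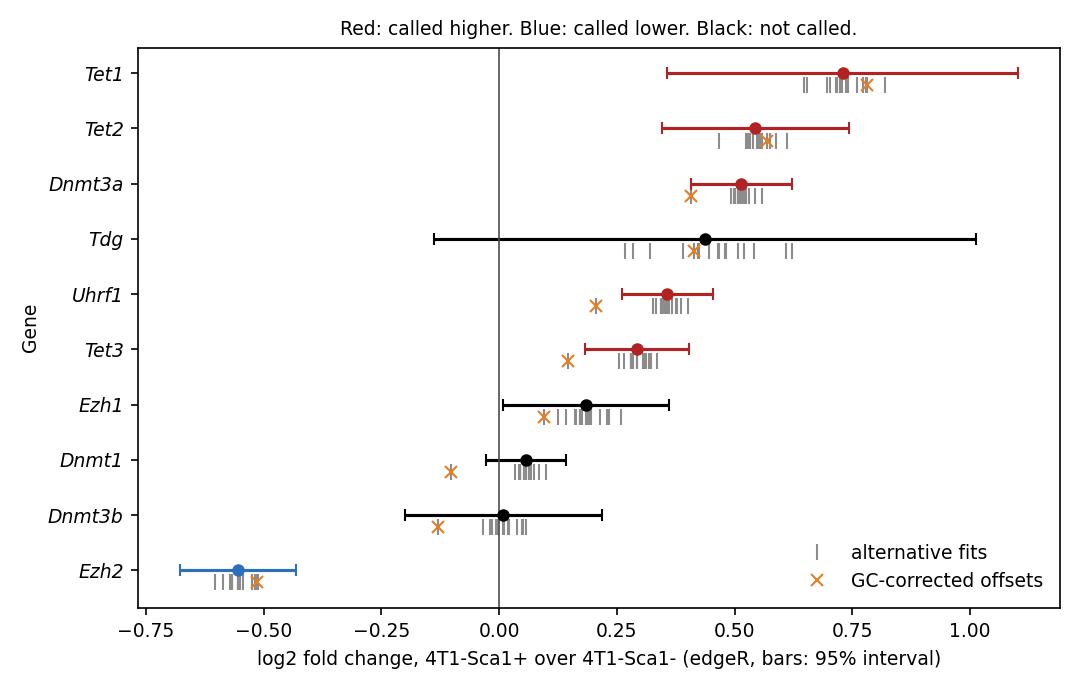
Log2 fold change of each gene between 4T1-Sca1+ and 4T1-Sca1- (dots, with 95% intervals from edgeR), with gray ticks for each alternative fit and orange crosses for GC-corrected offsets. Red genes were called higher, blue lower and black not called, and the crosses of Dnmt1 (-0.102) and Dnmt3b (-0.129) lie on the other side of 0 from their dots.

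The other genes of these pathways were read from lists, and for each list the counts are to be set against the 31.3% higher and 30.2% lower over all genes. Of 12 PRC2 partners and opposing demethylases, 5 rose, 1 fell and 6 were not called (median log2 fold change 0.13). Eed, the core subunit that binds the finished histone mark, fell with Ezh2 (859 ± 31.0 against 1067 ± 47.0, log2 fold change -0.30 ± 0.05, adjusted p = 7.49e-05, edgeR). Suz12, the scaffold of the complex, named after its values were seen, was not called (2071 ± 187 against 2124 ± 193, interval -0.17 to 0.12). The 5 genes that rose were accessory subunits and demethylases. Whether these differed from the core subunits as a group was not tested. Epop rose from 289 ± 24.5 to 501 ± 69.8 and Phf1, a Polycomb-like protein, from 492 ± 62.0 to 786 ± 178 normalized counts (log2 fold change 0.80 and 0.69, or 0.266 and 0.391 with GC-corrected offsets). Phf19, another Polycomb-like protein, and Kdm6b and Kdm6a, which remove the histone mark, also rose, by log2 fold changes of 0.56, 0.45 (0.128 with GC-corrected offsets) and 0.35, and are likewise named after their values were seen.

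Of 21 genes of Polycomb repressive complex 1 and its regulators, which act beside PRC2, 12 rose, 5 fell and 4 were not called (median 0.24). With GC-corrected offsets 10 rose and 7 fell, and the median was 0.0987. Cbx2, a reader of the PRC2 mark, rose from 355 ± 20.7 to 672 ± 73.4 and Cbx6 from 3078 ± 99.4 to 4803 ± 561 (log2 fold change 0.93 and 0.65). Pcgf5 and Pcgf6, subunits of variant complexes, fell to 276 ± 29.8 from 405 ± 5.58 and to 367 ± 21.1 from 490 ± 31.2 (-0.54 and -0.40).

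Among partners of the DNA methyltransferases, 13 of 15 listed genes were tested, of which 4 rose, 2 fell and 7 were not called (median 0.08, but 0.0508 without 4T1-Sca1+ replicate 3 and 0.0232 with GC-corrected offsets). Hells, a chromatin remodeler needed for normal DNA methylation, fell to 1534 ± 184 from 2082 ± 127 (log2 fold change -0.43 ± 0.07, adjusted p = 6.07e-05, edgeR). Usp7, a deubiquitinase that binds DNMT1 and UHRF1, fell by 0.32 on the log2 scale. Pcna, the replication clamp to which DNMT1 binds, rose from 2014 ± 80.6 to 2568 ± 167, and Ehmt2, a histone H3 lysine 9 methyltransferase, from 4883 ± 254 to 6218 ± 674. The call for Ehmt2 was lost with GC-corrected offsets, at a log2 fold change of 0.00135. Dnmt3l, the cofactor of DNMT3A and DNMT3B in germ cells, had 11 counts in 4T1-Sca1+ and 0 in 4T1-Sca1- and was not tested. Of 9 methyl-CpG readers, 3 rose, 2 fell and 4 were not called (median -0.01), with Zbtb4 at a log2 fold change of 0.67, Mbd2 at -0.20 and Zbtb38 at -0.21. With GC-corrected offsets 4 readers rose and 4 fell, and Mbd2 stood at -0.432. The median, close to 0, was 0.0356 with library totals and -0.0462 without 4T1-Sca1- replicate 2.

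Of the genes that supply or assist TET enzymes, 14 of 15 were tested, 6 rose, 5 fell and 3 were not called (median 0.14, but 0.0582 without 4T1-Sca1+ replicate 1). Idh1, which makes 2-oxoglutarate, the cosubstrate of TET enzymes, rose from 645 ± 58.4 to 2413 ± 109 normalized counts, the greatest change in the list (log2 fold change 1.92 ± 0.06, adjusted p = 5.27e-14, edgeR). Cxxc5, a CG-binding zinc finger protein, rose from 196 ± 22.3 to 316 ± 32.3. Idh3a and Sdha, enzymes of the citric acid cycle, fell by 0.38 and 0.56 on the log2 scale. Of the base excision repair genes that follow TDG, 11 of 12 were tested, 3 rose, 4 fell and 4 were not called (median -0.10). With GC-corrected offsets 3 rose and 8 fell (median -0.189), and with library totals the median was -0.0555. Gadd45b, a stress-induced gene linked to demethylation, fell to 418 ± 20.2 from 995 ± 81.3 (log2 fold change -1.24 ± 0.07, adjusted p = 4.18e-11, edgeR), and Neil1, a glycosylase, fell by 0.31 (to a log2 fold change of -0.511 with GC-corrected offsets), while the glycosylases Ung and Neil3 rose by 0.38 and 0.35.

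**Figure D5:**
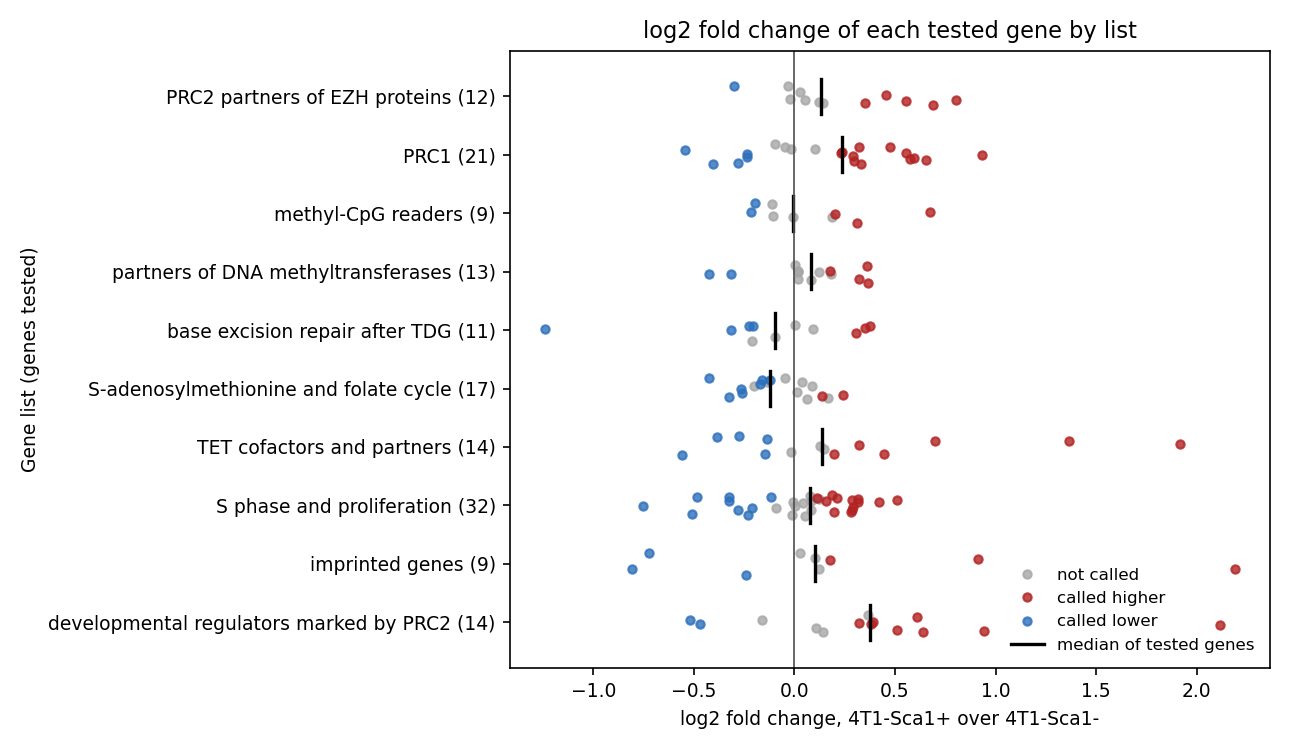
Log2 fold change of each tested gene in 10 lists, red where called higher, blue where called lower and gray where not called, with a black bar at the median of each list. The number tested follows each list's name, and every list holds genes on both sides of 0.

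Dnmt1, Uhrf1 and Ezh2 are known to be expressed most in dividing cells, so genes of S phase and proliferation were set beside them. Of 32 tested, 13 rose, 9 fell and 10 were not called (median 0.08, or 0.121 with library totals and 0.00876 with GC-corrected offsets). With library totals 17 rose and 7 fell, and with GC-corrected offsets 11 rose and 9 fell. E2f2 and Ccne1, which drive entry into S phase, rose by log2 fold changes of 0.51 (0.279 with GC-corrected offsets) and 0.42, while Pola1 and Prim1, subunits of the polymerase that starts DNA strands, fell by 0.75 and 0.51. Mki67, named after its values were seen, was not called, at 12480 ± 699 against 11880 ± 285 (log2 fold change 0.08 ± 0.05, adjusted p = 0.121, edgeR). Uhrf1 rose, Ezh2 fell and the listed genes moved in both directions. The part of cell cycle in the change of Uhrf1 or Ezh2 was not tested.

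Genes whose silencing depends on these marks were counted next. Of 30 germline genes known to be held silent by promoter DNA methylation, 15 were counted and 0 passed the filter, so none was tested. The highest count of any in a library was 7 (Piwil2, named after its values were seen), and 13 of the 15 had 3 counts or fewer in every library. Summed over the list, normalized counts ran from 8.23 to 19.7 in 4T1-Sca1+ and from 2.28 to 18.9 in 4T1-Sca1-, ranges that overlapped. Of 30 imprinted genes, 18 were counted and 9 tested, of which 3 rose, 3 fell and 3 were not called (median 0.10). The median turned to -0.131 with GC-corrected offsets and was 0.0298 without 4T1-Sca1+ replicate 3, 0.0504 without 4T1-Sca1+ replicate 1 and 0.0483 without 4T1-Sca1- replicate 1. Kcnq1ot1, a long RNA expressed from an imprinted control region, rose from 105 ± 10.9 to 195 ± 6.07 (log2 fold change 0.91 ± 0.09, adjusted p = 2.54e-07, edgeR), Igf2r rose by 0.17 (0.0866 with GC-corrected offsets) and Mest fell by 0.24. The call for Mest was lost with library totals and without 4T1-Sca1- replicate 2 or replicate 3.

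Of 50 developmental regulators that commonly carry the PRC2 mark where silent, 21 were counted and 14 tested, of which 8 rose, 2 fell and 4 were not called (median 0.37). Irx3, a homeobox gene, rose from 77.1 ± 10.5 to 334 ± 69.1 (log2 fold change 2.11 ± 0.14, adjusted p = 7.62e-10, edgeR) and Foxf1, a forkhead gene, from 294 ± 16.8 to 560 ± 61.4. Foxa1, a forkhead factor of luminal epithelium, fell to 114 ± 13.6 from 158 ± 23.2. The other gene that fell, Ebf1, named after its values were seen, lost its call in 12 of 18 alternatives. No histone mark was measured in these libraries.

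Markers of other cells differed between the fractions. Of 12 leukocyte markers, 10 were counted and 3 tested, and all 3 rose (median 1.18), where 31.3% of all genes tested were higher. A gene can pass the filter on low counts through 1 fraction alone, so the filter may shape the counts of called markers given here. The summed level of the leukocyte list was 204 to 228 normalized counts in 4T1-Sca1+ and 83.1 to 121 in 4T1-Sca1-. Most of it came from Cd74, at 125 ± 6.42 against 65.5 ± 15.1. The other leukocyte genes that rose were Csf1r and S100a8. With GC-corrected offsets the log2 fold changes of Cd74, Csf1r and S100a8 were 0.707, 1.01 and 2.42, and these calls were lost in 0 alternatives. Ptprc, which defines leukocytes and encodes CD45, was at 2.32 against 0.535 and Lyz2 at 0 against 0.278. Cd74, Csf1r, S100a8, Col1a1, Col1a2 and Tie1 are named after their values were seen. Of 8 fibroblast markers, 6 were counted and 3 tested, 2 rose and 0 fell (median 0.63), with summed levels of 634 to 671 against 391 to 466, mostly from Pdgfra (560 ± 26.1 against 364 ± 25.6), and with Col1a2 at 4.43 against 4.61. The other fibroblast gene that rose was Col1a1. With GC-corrected offsets Pdgfra stood at 0.609 and Col1a1 at 0.451. Of 6 endothelial markers, 5 were counted and 1 was tested, and it fell (Tie1, log2 fold change -0.60, a call lost without 4T1-Sca1- replicate 4), with summed levels of 33.8 to 40.9 against 42.3 to 63.9 and Tek at 0 against 0.257. Of 6 epithelial markers, 5 were tested, 2 rose, 2 fell and 1 was not called, and with GC-corrected offsets Krt8 lost its call (0.0652), Krt18 stood at 0.152 and Krt14 at -0.476. Without that correction Krt14 was at -0.23 and Cdh1, which encodes E-cadherin, at -0.69 (3264 ± 154 against 5301 ± 92.6). The part of these cells in the levels of the 10 genes was not tested.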

How the data were processed

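RNA-seq libraries of 2 groups, 4 each, were compared, with groups and replicate numbers taken from the labels. Per the submitters' processing notes, reads were trimmed with cutadapt 1.16 and aligned with STAR 2.5.3a to GRCm38 (mm10). The counting tool, annotation, strand use and read length are not given in the sources used here, and the labels name the TruSeq RNA kit V2, which does not mark strand. The authors deposited raw counts for 16341 genes and a second table whose signal values, for 15372 genes, equal those counts divided by DESeq2 size factors (to a relative 4.9e-15). The 969 genes left out had a total of at most 1 count each. There were 0 columns of unmapped samples.

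Counts were tested with edgeR 4.0.16 in R 4.3.3 (TMM scaling, filterByExpr, quasi-likelihood test, Benjamini-Hochberg adjustment over 11717 genes, threshold 0.05), which was also tested on simulated data. Common biological variation was 0.0541. Ratios of counts within a library (0.5 added) were tested by two-sided exact permutation with adjustment over 5 ratios. Alternatives were other scalings, filters and thresholds, DESeq2 1.42.0, limma 3.58.1 (log2 of the deposited normalized values plus 1, and voom), a replicate block and leaving out each library. Gene positions, lengths and windows came from GENCODE M21 (16202 identifiers matched, 139 did not), and promoters from RefSeq. The 10 genes and the 15 gene lists were chosen with earlier results of these data known. Named genes are the 10, Ly6a, the 5 genes most like the called gene with the greatest change, genes that define a list but were at 0 or not tested, and, from each list, the 2 highest and 2 lowest called log2 fold changes at a mean of at least 100 normalized counts. Others are said to be named after their values were seen. One gene that this rule names is not reported here.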

Additional observations from a re-analysis of the deposited data

Results flagged for a closer look

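The ratio of Dnmt3b to Dnmt3a in 4T1-Sca1+ replicate 4 lay far from the other libraries of its fraction, at -3.08 on the log2 scale against -2.83 to -2.78. It was 1 of 30 groups of 4 values tested in this way (10 genes and 5 ratios in each fraction), of which chance gives about 1.5. Dnmt3b had 114 normalized counts in that library against 129 to 134 in the others.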

How the results depend on the processing

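Calls for Dnmt3a, Uhrf1, Tet1, Tet2, Tet3 and Ezh2 kept their direction and side of the threshold in all 18 alternatives, with log2 fold changes of 0.408 to 0.557, 0.205 to 0.40, 0.648 to 0.82, 0.467 to 0.611, 0.147 to 0.336 and -0.604 to -0.511. Tdg, at 0.268 to 0.621, was called in none of 17 and could not be tested under a minimum of 10 counts in every library. Where a log2 fold change of 1 or more in size was also required, 612 genes were higher and 103 lower over all genes, and 0 and 0 of the 10. With GC-corrected offsets 2 of the 10 were lower, Ezh2 and Dnmt1 (-0.102, against 0.0563). Dnmt1 passed at 0.0995 with library totals, and Ezh1 at 0.228 with totals and 0.215 with upper-quartile scaling, against 0.185. Dnmt3b, at 0.00885, turned to -0.00403 with DESeq2 size factors, -0.129 with GC correction, -0.00459 without a filter, -0.00347 in DESeq2 and -0.00146 in limma on the deposited normalized table. Leaving out single libraries gave Dnmt3b -0.0337 to 0.0576 and Ezh1 0.124 to 0.258. The cause of these shifts was not tested. The log2 differences of the 5 ratios kept their direction and stayed within the spread between libraries. The permutation test was not run with 3 against 4 libraries, so whether the calls of the ratios hold there was not tested. For the lists, 543 of 600 counts stayed within 1.5 times and 206 of 234 medians moved by less than the spread between libraries.

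Libraries with the same replicate number showed little shared deviation from their group means (correlations 0.0957, -0.15, -0.0339 and -0.00107). These values were not set against those of other pairs, and they cannot show whether such libraries came from the same sort. A replicate block gave 3605 genes higher and 3452 lower and 5 and 1 of the 10. For the ratios, an exact permutation by sign flips of 4 pairs cannot go below p = 0.125, and at that p Ezh2 to Ezh1 (-0.742), Dnmt3b to Dnmt3a (-0.502) and Dnmt1 to Uhrf1 (-0.301) did not pass. Depth limits Tet1 and Tdg most.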

Other observations

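The cycle that supplies S-adenosylmethionine, the methyl donor of DNMT and EZH enzymes, showed more genes lower than higher in 4T1-Sca1+. Of 19 listed genes of this cycle and of folate metabolism, 17 were tested, 2 rose, 7 fell and 8 were not called (median log2 fold change -0.12), against 31.3% higher and 30.2% lower over all genes. Shmt2, the mitochondrial enzyme that passes one-carbon units from serine to folate, fell to 6141 ± 339 from 8326 ± 597 normalized counts (log2 fold change -0.43 ± 0.05, or -0.683 with GC-corrected offsets, adjusted p = 2.16e-06, edgeR). Ahcyl2, a relative of the enzyme that clears S-adenosylhomocysteine, fell to 478 ± 19.9 from 603 ± 17.6. Mtap, which salvages methionine, rose from 9596 ± 86.6 to 11247 ± 350, and Mat2a, which makes S-adenosylmethionine, rose by 0.14 on the log2 scale with fractions that overlapped (adjusted p = 0.0344, edgeR), a call lost in 9 of 18 alternatives, 5 of which left out a single library (4T1-Sca1+ replicates 1 and 2, and 4T1-Sca1- replicates 1, 2 and 3).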
